A study of Homo sapiens with 12 samples.

Results

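Polycomb repressive complex 1 (PRC1) was followed through 9 of its genes in the RNA-Seq dataset of EZH2 mutant HEK293T cells. The genes were taken by symbol and made up 9 of the 14438 genes of the count table. They were the CBX readers CBX2, CBX6, CBX7 and CBX8, the RING ligases RING1 and RNF2, the PCGF subunits PCGF2 and BMI1, and the polyhomeotic gene PHC1. All 9 had counts in each of the 12 samples and all 9 were tested.

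HEK293T is a human embryonic kidney cell line that carries large T antigen. Each of the 4 lines compared was made by lentiviral infection with a copy of EZH2, the methyltransferase of PRC2, and was selected with blasticidin. The copy was wild type (EZH2 WT), carried 1 of the gain-of-function (GOF) substitutions Y641F or A677G, or carried the loss-of-function (LOF) pair H689A/F667I. There were 3 replicates per line, and the lines are named WT, Y641F, A677G and LOF cells below. Removal of the EZH2 gene of the host cells is not described, so the counts of EZH2 hold both the introduced and the resident transcript. Each line is 1 selected population, which the methods describe as meant to be monoclonal, so line and mutation cannot be told apart beyond the replicates. A line infected with empty vector was not analysed here. The p-values measure the spread between replicate samples of 1 line, which may be technical.

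PRC2 trimethylates histone H3 at lysine 27 (H3K27me3), and PRC1 ubiquitinates histone H2A (H2AK119ub). RING1 or RNF2 is the ubiquitin ligase at the core of PRC1 and pairs with a PCGF protein. In canonical PRC1 the PCGF protein is BMI1 or PCGF2, a CBX protein binds H3K27me3 through its chromodomain, and a PHC protein joins complexes to each other through its SAM domain. Variant PRC1 has RYBP or YAF2 in the place of the CBX protein and can use any PCGF protein.

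Sequencing depth, as the total count per sample, ran from 32137700 to 44562413, and the 9 genes took between 0.0531% and 0.0569% of them. Values are given below as CPM, the counts scaled to the library total with TMM factors. A gene was called where its p in the quasi-likelihood test of edgeR was under 0.05 after Benjamini-Hochberg adjustment, for which 14263 genes were tested together. EZH2 itself was measured at 157, 163 and 154 CPM in WT cells, 228, 209 and 217 in Y641F cells, 174, 165 and 182 in A677G cells, and 208, 210.1 and 206 in LOF cells. Counts per gene do not tell the alleles apart, and the count of EZH2 moved with the line. Its log2 fold change against WT cells was 0.46 in Y641F cells, 0.13 in A677G cells and 0.40 in LOF cells, each called, and the part of this difference in the results below was not tested. Of the 13 markers of the HEK293T label, 10 had counts in every sample, while KRT19 and PAX8 had no row and PAX2 was at 0 in a whole line. Of 8 markers of blood, fibroblasts and liver, 6 had no row, and COL1A1 lay between 5.43 and 9.72 CPM. Replicate 1 of Y641F cells lay furthest from the other replicates of its line, with a median absolute deviation of 0.09 in log2 CPM over 12040 genes against 0.05 to 0.08 in the other 11 samples. The calls among the 9 genes in Y641F cells are therefore also given without it.

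The levels of the 9 genes differed far more between genes than between lines. Per kilobase of the canonical transcript, and averaged over the 12 samples, CBX6 was highest at 49.4 CPM per kb. CBX2 at 21.1, RNF2 at 19.2 and RING1 at 17.0 CPM per kb followed. BMI1 at 4.33, CBX8 at 4.15 and PHC1 at 3.90 CPM per kb formed a lower group, followed by PCGF2 at 1.58 and CBX7 at 0.83. Over the 12 samples the ranges of CBX2 and RNF2 overlapped, as did those of RNF2 and RING1 and those of BMI1, CBX8 and PHC1. CBX6 lay above every other member in every sample, and CBX7 lay below every other member. By mean log2 CPM, which is not scaled to length, CBX6 stood at percentile 96.8 of all genes tested and CBX7 at percentile 20.8.

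**Figure D1:**
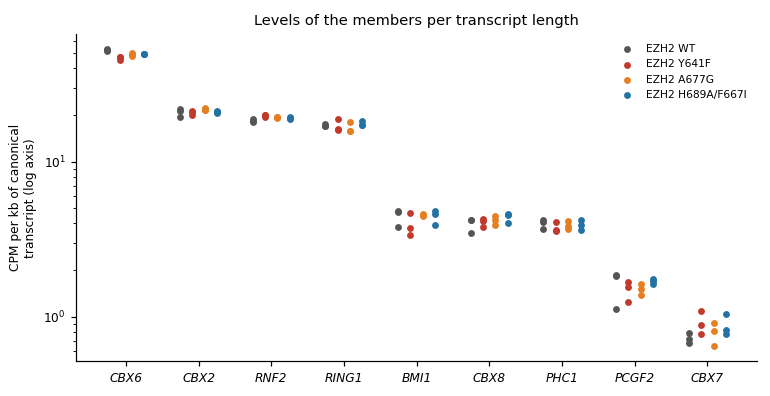
Level of each of the 9 genes in CPM per kb of canonical transcript, on a log axis, with 1 point for each of the 12 samples, coloured by EZH2 line. CBX6 lies between 45.3 and 53.0 CPM per kb and CBX7 between 0.65 and 1.09, and the samples of the 4 lines lie close together for each gene.

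The balance between paralogs differed between the places of the complex. The pair of ligases was nearly balanced per kb, and RNF2 gave 51.8% ± 0.96 (SD, n = 3) of their summed level per kb in WT cells. This rests on 1 canonical transcript per gene, of 3407 bases for RNF2 and 1741 for RING1. Not scaled to length, the counts of RNF2 were 2.13, 2.02 and 2.17 times those of RING1 in WT cells. BMI1 and PCGF2, the PCGF subunits of canonical PRC1, gave 6.21% ± 0.61 and 2.25% ± 0.60 of the sum of the 6 PCGF genes in WT cells, where PCGF6, a subunit of variant PRC1, gave 37.5% ± 1.12. These shares also rest on 1 canonical transcript per gene. Not scaled to length, PCGF3 was highest of the 6 in WT cells at 85.1 CPM, with PCGF6 at 59.9, BMI1 at 15.7 and PCGF2 at 4.22 CPM.

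The first question was whether GOF or LOF mutation of EZH2 went with a change in the transcripts of PRC1. Of the 9 genes, 1 was called in Y641F cells against WT cells, where 7.68% of all genes tested were called, 2.09% higher and 5.59% lower. This gene was CBX6, and it was lower. In A677G cells 0 of the 9 genes were called, with 8.55% of all genes called (2.07% higher and 6.48% lower), while DESeq2 and limma voom called 1. In LOF cells 0 of 9 were called, by edgeR, DESeq2 and limma voom, with 0.301% of all genes called. At an unadjusted p under 0.05 there were 2 of the 9 genes in Y641F cells (19.2% of all genes), 1 in A677G cells (20.4%) and 1 in LOF cells (8.30%). The median log2 fold change of the 9 genes was -0.02 in Y641F cells, 0.02 in A677G cells and 0.03 in LOF cells, while the median of all genes tested was between 0.0024 and 0.0045. The 3 comparisons share the WT samples. With 9 genes, the counts of members called are near these shares of all genes.

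**Figure D2:**
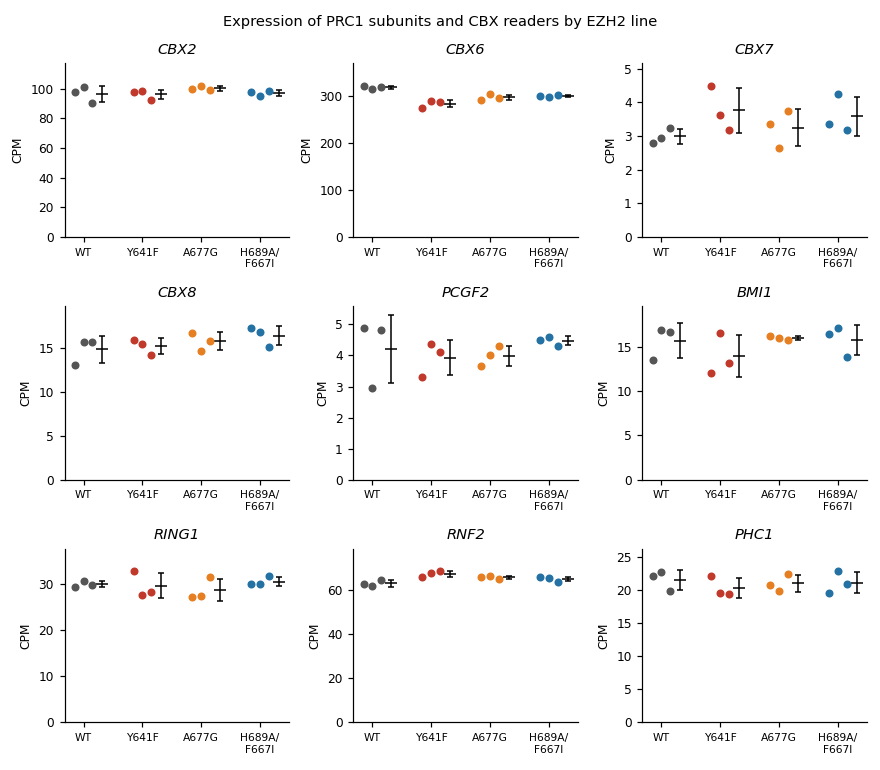
CPM of the 9 genes in the 3 replicates of each EZH2 line, with the mean and SD beside the points, each panel starting at 0. CBX6 is the panel in which all replicates of the 3 mutant lines, between 274 and 303 CPM, lie below the WT replicates, between 315 and 321 CPM.

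CBX6 (ENSG00000183741.12, chr22:38861422-38872249, minus strand, GRCh38) encodes a Polycomb chromobox protein and was the most abundant reader. It was measured at 321, 315 and 318 CPM in WT cells and at 274, 288 and 287 CPM in Y641F cells. In A677G cells it was measured at 291, 303 and 296 CPM, and in LOF cells at 298, 298 and 301 CPM. All 9 mutant samples lay below the 3 WT samples, and the Y641F samples lay below all others. Replicates that did not overlap WT cells were found for 20.9% of all genes in Y641F cells (11.7% below), 27.2% in A677G cells (14.7% below) and 15.0% in LOF cells (7.14% below). The share of genes with all 3 mutants below WT cells, or with Y641F cells below all others, was not counted. All 3 comparisons use the same WT samples. In Y641F cells CBX6 fell by 11.0%, a log2 fold change of -0.17 (SE 0.03, 95% interval -0.24 to -0.10, adjusted p = 0.000994, edgeR quasi-likelihood test). Without replicate 1 of Y641F cells it fell by 0.15 on the log2 scale (adjusted p = 0.00332). The call was made in each of 11 alternative settings and in each of 12 fits that left out 1 sample. These are bulk samples, so fewer cells with the transcript and less transcript per cell cannot be told apart.

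In A677G cells the log2 fold change of CBX6 was -0.10 (SE 0.03, 95% interval -0.17 to -0.03), with an adjusted p of 0.0628 in edgeR's quasi-likelihood test. It passed the threshold in 5 of 11 alternative settings, with adjusted p-values over the settings between 0.00978 and 0.0957. It also passed in the 3 fits that left out 1 of the Y641F samples, with adjusted p-values of 0.0258, 0.0391 and 0.0469. In LOF cells the log2 fold change was -0.09 (SE 0.03, 95% interval -0.16 to -0.02, adjusted p = 0.428), and it was called in 0 of 11 alternative settings. CBX6 in Y641F cells lay below A677G cells in every replicate, while 10.2% of all genes did not overlap between these lines and 4.86% were lower in every Y641F sample. The log2 difference was -0.07 (95% interval -0.14 to 0.0026, adjusted p = 0.747). The mean of both GOF mutants differed from LOF cells by -0.05 (95% interval -0.11 to 0.01, adjusted p = 0.373). A difference in CBX6 between the mutants was thus not shown, and the intervals allow Y641F cells to be up to 9.04% lower than A677G cells.

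The genes around CBX6 had medians near 0. The 39 genes tested within 1 Mb had a median log2 fold change of 0.04 in Y641F cells, and the 350 genes of chromosome 22 a median of 0.02. The 1626 genes whose GC content lay within 2 percentage points of that of CBX6, which is 59.3%, had a median of -0.02. With the trend on GC content removed from each sample, CBX6 fell by 0.15 on the log2 scale in Y641F cells (adjusted p = 0.00263, edgeR quasi-likelihood test). Across the 12 samples the genes whose log2 CPM followed CBX6 most closely were BFSP1, a lens filament gene (Pearson r = 0.92), BEX5 (r = 0.92) and ATL1, which encodes a membrane GTPase of the endoplasmic reticulum (r = 0.91). These are descriptions over 12 samples of 4 lines, and the samples of a line share its level.

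**Figure D3:**
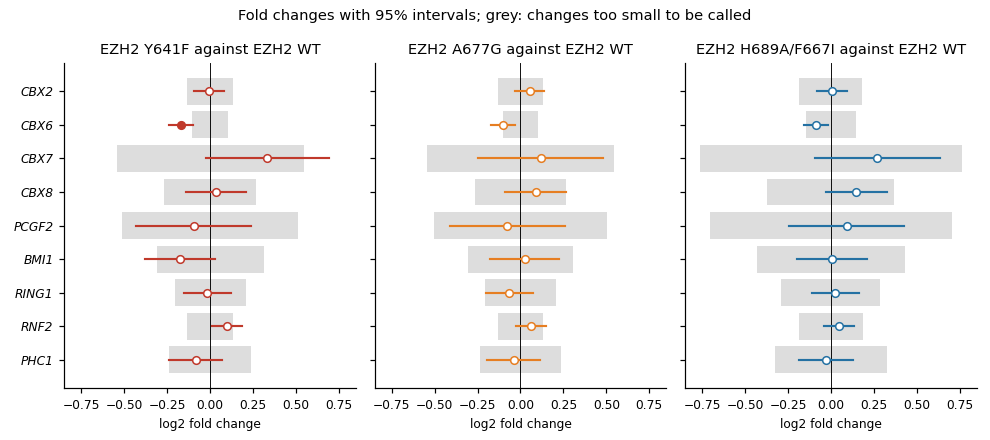
Log2 fold change of the 9 genes in each mutant against WT cells, with 95% intervals, where a filled point was called. The grey bars span the changes that would not have passed the threshold at the standard error of that gene, and CBX6 in Y641F cells is the filled point, at -0.17.

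CBX7 (ENSG00000100307.13, chr22:39120167-39152680, minus strand) is the other chromobox gene of this locus, 247917 bases from CBX6, and encodes a reader known from stem cells. It was measured at 2.79, 2.95 and 3.23 CPM in WT cells and at 4.49, 3.62 and 3.17 CPM in Y641F cells. In A677G cells it was at 3.34, 2.65 and 3.73 CPM, and in LOF cells at 3.36, 4.25 and 3.17 CPM. Each mutant overlapped WT cells, and the highest sample was replicate 1 of Y641F cells. The log2 fold change was 0.33 in Y641F cells (95% interval -0.02 to 0.69, adjusted p = 0.305), and 0.18 without that replicate. It was 0.12 in A677G cells (-0.25 to 0.48) and 0.0072 there without A677G replicate 3. It was 0.27 in LOF cells (-0.09 to 0.63) and 0.13 there without LOF replicate 2. With 102 to 189 counts per sample, a rise of less than 45.8% in Y641F cells would not have been called at this depth and spread. Counts of CBX7 may include a pseudogene and an antisense transcript that overlap it and have no row in the table.

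CBX2 and CBX8 lie 4148 bases apart on chromosome 17. CBX2 (ENSG00000173894.11, chr17:79778148-79787983, plus strand), a reader whose protein also compacts nucleosomes, was at 98.0, 101 and 90.5 CPM in WT cells and at 97.4, 98.5 and 92.4 CPM in Y641F cells. It was at 99.6, 102 and 99.1 CPM in A677G cells and at 97.5, 94.99 and 98.5 CPM in LOF cells. Every mutant overlapped WT cells, while the Y641F samples lay below those of A677G cells, as did those of 4.86% of all genes. The log2 fold change against WT cells was -0.0078 in Y641F cells (95% interval -0.09 to 0.08), 0.05 in A677G cells (-0.03 to 0.14) and 0.0054 in LOF cells (-0.08 to 0.09). Y641F cells differed from A677G cells by -0.06 (-0.15 to 0.03, adjusted p = 0.839, edgeR quasi-likelihood test).

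CBX8 (ENSG00000141570.11, chr17:79792132-79801683, minus strand), a reader that can also work with activating partners, was at 13.1, 15.7 and 15.7 CPM in WT cells. The 3 mutant lines covered 14.3 to 15.9 CPM in Y641F cells, 14.7 to 16.7 CPM in A677G cells and 15.2 to 17.2 CPM in LOF cells. Each range overlapped that of WT cells, whose replicate 1 was the lowest of the 12 samples. The log2 fold changes were 0.04, 0.09 and 0.15 in that order of lines, with an interval of -0.03 to 0.32 in LOF cells (adjusted p = 0.691).

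RNF2 (ENSG00000121481.11, chr1:185045526-185102603, plus strand), also known as RING1B, encodes the main H2A ubiquitin ligase of PRC1. It was at 62.6, 61.8 and 64.7 CPM in WT cells and at 65.9, 67.8 and 68.6 CPM in Y641F cells. It was at 65.9, 66.3 and 65.2 CPM in A677G cells and at 65.9, 65.5 and 63.9 CPM in LOF cells. All samples of both GOF mutants lay above WT cells, and LOF cells overlapped them. Of all genes, 9.28% lay above WT cells in this way in Y641F cells and 12.5% in A677G cells. The log2 fold change in Y641F cells was 0.10 (SE 0.04, 95% interval 0.0095 to 0.19), which had an unadjusted p of 0.031 and an adjusted p of 0.196 in edgeR's quasi-likelihood test. In A677G cells it was 0.06 (-0.03 to 0.15, adjusted p = 0.471), and in LOF cells 0.05 (-0.04 to 0.14, adjusted p = 0.836). RNF2 was called in 0 of 11 alternative settings in each mutant, and the intervals allow a rise of up to 13.8% in Y641F cells.

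RING1 (ENSG00000204227.5, chr6:33208500-33212722, plus strand), its paralog, was at 29.4, 30.6 and 29.8 CPM in WT cells. It was at 32.8, 27.7 and 28.4 CPM in Y641F cells, 27.3, 27.3 and 31.5 CPM in A677G cells, and 29.9, 29.9 and 31.7 CPM in LOF cells. The WT samples lay inside the ranges of both GOF mutants, each of which had 1 sample above them and 2 below. The log2 fold changes were -0.02 (95% interval -0.15 to 0.12), -0.06 (-0.20 to 0.07) and 0.03 (-0.11 to 0.16) in Y641F cells, A677G cells and LOF cells.

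BMI1 (ENSG00000168283.14, chr10:22321099-22331484, plus strand), also named PCGF4, stimulates the ligase in canonical PRC1 and is known for the self-renewal of stem cells. It was at 13.4, 16.9 and 16.7 CPM in WT cells and at 11.98, 16.6 and 13.2 CPM in Y641F cells. It was at 16.2, 15.9 and 15.7 CPM in A677G cells and at 16.4, 17.1 and 13.8 CPM in LOF cells. The lines overlapped, and Y641F cells held the 2 lowest samples. The log2 fold change in Y641F cells was -0.18 (SE 0.10, 95% interval -0.38 to 0.03, adjusted p = 0.359), and it was -0.08 without replicate 1 of that line. In A677G cells it was 0.02 (-0.18 to 0.23) and in LOF cells 0.0093 (-0.19 to 0.21). A read-through gene, COMMD3-BMI1, covers BMI1 on the same strand and has no row in the table, so its reads may be counted in BMI1.

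PCGF2 (ENSG00000277258.5, chr17:38733898-38749817, minus strand), also known as MEL18, is the paralog of BMI1. It was at 4.87, 2.95 and 4.83 CPM in WT cells, and the mutants covered 3.30 to 4.39 CPM in Y641F cells, 3.66 to 4.31 CPM in A677G cells and 4.31 to 4.61 CPM in LOF cells. Replicate 2 of WT cells was the lowest of all samples, and the other 2 WT samples were the highest. The log2 fold changes in the same order of lines were -0.10 (95% interval -0.43 to 0.24), -0.08 (-0.41 to 0.26) and 0.09 (-0.24 to 0.43). PCGF2 had 114 to 181 counts per sample, and it overlaps CISD3 on the opposite strand, which had 642 to 958 counts. The library kit was stranded, but the strand setting of the counting is not given in the sources used here.

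PHC1 (ENSG00000111752.11, chr12:8913896-8941467, plus strand) was the polyhomeotic member. It was at 22.1, 22.7 and 19.8 CPM in WT cells, 22.1, 19.6 and 19.3 CPM in Y641F cells, 20.8, 19.9 and 22.4 CPM in A677G cells, and 19.6, 22.8 and 20.9 CPM in LOF cells. All 4 ranges overlapped. The log2 fold changes of these mutants were -0.08 (95% interval -0.24 to 0.07), -0.04 (-0.19 to 0.12) and -0.03 (-0.18 to 0.13), which leave room for a decrease of up to 15.3% in Y641F cells. PHC1 overlaps M6PR on the opposite strand, which had 1967 to 2911 counts. Processed pseudogenes of BMI1, RNF2 and PHC1 are annotated and have no row in the table, so reads of the parent genes that match them are uncertain.

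Between Y641F cells and A677G cells 0 of the 9 genes were called, with 0.0841% of all genes called. CBX7 differed by 0.22 on the log2 scale (95% interval -0.13 to 0.57), and by 0.07 to 0.33 with 1 sample left out. BMI1 differed by -0.20 (-0.40 to 0.0027, adjusted p = 0.727, edgeR quasi-likelihood test), and by -0.34 to -0.10 with 1 sample left out. The smallest difference in size of both genes came without replicate 1 of Y641F cells. Between the mean of both GOF mutants and LOF cells 0 of 9 were called, with 12.6% of all genes called (3.81% higher and 8.75% lower). The log2 differences ran from -0.18 for PCGF2 (-0.47 to 0.11) to 0.03 for RNF2. Of the 9 genes 7 were negative, beside 6900 of the 14263 genes tested, and a joint shift of the members was not tested. At an unadjusted p under 0.05 there were 0 of 9 in both comparisons, against 6.91% and 23.8% of all genes, and 0 of 9 were called by DESeq2 and by limma voom as well. Samples of the GOF mutants and LOF cells overlapped for all 9 genes, while 13.9% of all genes did not overlap.

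The second question was whether paralogs that take the same place in PRC1 shifted against each other. The log2 ratio of their counts within a sample does not depend on library scaling. Of 12 exact permutation tests, on 4 ratios in 3 mutants, 0 passed after Benjamini-Hochberg adjustment, and 3 samples against 3 cannot go below 0.1. RNF2 to RING1 was 1.07 ± 0.06 (SD, n = 3) in WT cells, 1.19 ± 0.16 in Y641F cells, 1.201 ± 0.13 in A677G cells and 1.09 ± 0.07 in LOF cells. The GOF replicates overlapped WT cells in this ratio.

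CBX7 to CBX6 was -6.73 ± 0.11 in WT cells, -6.24 ± 0.29 in Y641F cells, -6.52 ± 0.27 in A677G cells and -6.39 ± 0.23 in LOF cells. All samples of Y641F cells and of LOF cells lay above WT cells. In both lines CBX6 alone lay below WT cells and CBX7 alone overlapped them, so this is no separate result on CBX7. The share of other gene ratios that separate in this way was not counted. The differences in the ratio were 0.49 and 0.34, each with p = 0.1 in the exact permutation test, which is the smallest it can give, and 0.60 after adjustment. The difference was 0.21 in A677G cells, whose samples overlapped WT cells (exact permutation test, p = 0.3), and 0.10 without A677G replicate 3 and 0.36 without A677G replicate 2. The other ratios were BMI1 to PCGF2 and CBX8 to CBX2. They differed from WT cells by -0.11 to 0.14, with overlapping samples in each mutant and p between 0.3 and 0.9 in the exact permutation test. Replicate 2 of WT cells, where PCGF2 was low, gave a BMI1 to PCGF2 ratio of 2.52 against 1.46 and 1.79 in the other WT samples.

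**Figure D4:**
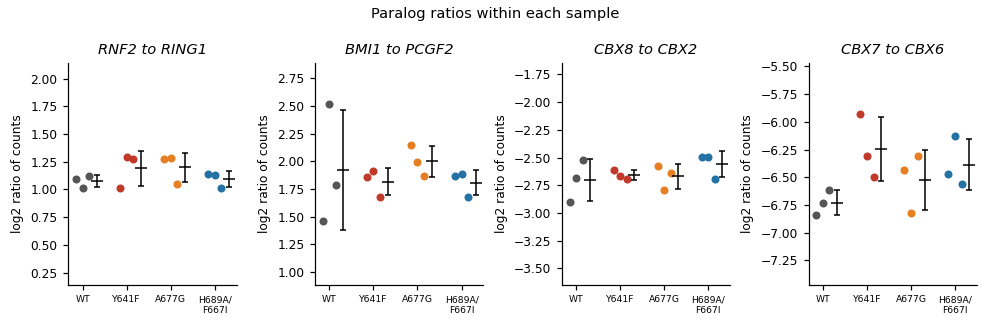
Log2 ratio of the counts of 2 paralogs within each sample, with the mean and SD of the 3 replicates beside the points. CBX7 to CBX6 lies above the WT samples in all replicates of Y641F cells and of LOF cells.

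The other genes of the pathway were read from a list of 42 genes of canonical and variant PRC1 and of the deubiquitinases that remove H2AK119ub, with their partners. All 42 were tested. In Y641F cells 1 was higher and 1 lower, beside 2.09% higher and 5.59% lower among all genes. Without replicate 1 of this line 1 was higher and 3 lower, beside 8.64% of all genes called, 76.5% of them lower. The higher gene of that fit was a different gene from that of the full fit. In A677G cells 0 were higher and 1 lower, beside 2.07% and 6.48% of all genes. In LOF cells 0 of 42 were called, beside 0.301% of all genes. The median log2 fold change of the 42 genes was 0.01, 0.03 and -0.0064 in the 3 mutants. At an unadjusted p under 0.05 there were 8 of the 42 in Y641F cells (19.2% of all genes), 6 in A677G cells (20.4%) and 7 in LOF cells (8.30%). Between Y641F cells and A677G cells 0 of 42 were called, beside 0.0841% of all genes, and 1 was under an unadjusted p of 0.05, beside 6.91%. DESeq2, the edgeR exact test and limma voom also called 0 of 42 in LOF cells and between the GOF mutants.

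The lower gene in both GOF mutants was PCGF5, which encodes the PCGF subunit of a variant PRC1 and stimulates the ligase without a CBX reader. It was at 61.1, 64.8 and 62.6 CPM in WT cells and at 45.6, 47.0 and 51.5 CPM in Y641F cells. It was at 52.7, 53.9 and 49.3 CPM in A677G cells and at 64.2, 60.6 and 61.3 CPM in LOF cells. All 6 GOF samples lay below all samples of WT cells and of LOF cells. Of all genes, 11.7% lay below WT cells in Y641F cells and 14.7% in A677G cells. All GOF samples lay below the LOF samples for 1251 of the 14263 genes tested. The log2 fold change was -0.39 in Y641F cells (SE 0.05, adjusted p = 1.04e-06, edgeR quasi-likelihood test) and -0.27 in A677G cells (SE 0.05, adjusted p = 0.000216). In LOF cells it was -0.02 (95% interval -0.12 to 0.08). The mean of the GOF mutants differed from LOF cells by -0.31 (SE 0.04, adjusted p = 1.80e-06). The share of PCGF5 in the summed level per kb of the 6 PCGF genes was 12.3% ± 0.33 in WT cells, 9.95% ± 0.62 in Y641F cells, 10.0% ± 0.36 in A677G cells and 11.98% ± 0.19 in LOF cells.

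**Figure D5:**
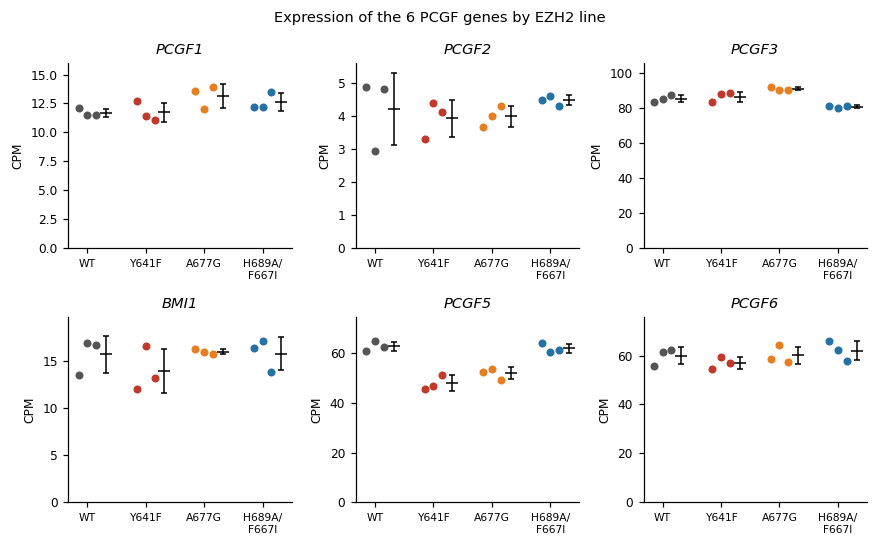
CPM of the 6 PCGF genes in the 3 replicates of each EZH2 line, with the mean and SD beside the points, each panel starting at 0. PCGF5 lies between 45.6 and 53.9 CPM in the GOF samples and between 60.6 and 64.8 CPM in the WT and LOF samples, while BMI1 and PCGF2 overlap between lines.

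The higher gene in Y641F cells was DCAF7, a scaffold found with PCGF3 and PCGF5 in variant PRC1. It was at 115 ± 2.65 CPM (SD, n = 3) in WT cells and 126 ± 2.75 CPM in Y641F cells, a log2 fold change of 0.13 (SE 0.04, adjusted p = 0.0349). This call was lost when replicate 2 or 3 of WT cells or replicate 1 or 3 of Y641F cells was left out. It was made in 9 of 11 alternative settings, and lost with the compared groups alone (adjusted p = 0.105) and with limma voom (0.0545). Against LOF cells, the mean of the GOF mutants had 3 genes of the list higher and 1 lower, beside 3.81% higher and 8.75% lower among all genes, and 9 of the 42 were under an unadjusted p of 0.05, beside 23.8%. The higher genes were PCGF3, the paralog of PCGF5, at 0.13 (SE 0.04, adjusted p = 0.00911), ASXL2, a partner of the deubiquitinase BAP1, at 0.15 (SE 0.05, adjusted p = 0.0316), and DCAF7 at 0.10 (SE 0.03, adjusted p = 0.0471). PCGF3 was at 83.1, 87.6 and 88.1 CPM in Y641F cells, 91.7, 90.4 and 90.2 CPM in A677G cells, and 81.2, 79.8 and 81.1 CPM in LOF cells. All 6 GOF samples of PCGF3 lay above the LOF samples, as did those of 736 of the 14263 genes tested. The WT samples of PCGF3, at 83.2, 84.8 and 87.4 CPM, overlapped those of Y641F cells. The lower gene was PCGF5. Of 12 fits that left out 1 sample, PCGF5 was called in 12, PCGF3 in 11, ASXL2 in 8 and DCAF7 in 4. Without replicate 1 of LOF cells PCGF5 and PCGF3 were called, and without replicate 2 of LOF cells PCGF5 and ASXL2.

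PHC2 and PHC3, the paralogs of PHC1, had log2 fold changes of 0.04 and 0.13 in Y641F cells, 0.03 and 0.12 in A677G cells, and 0.07 and 0.05 in LOF cells, with no call. The HP1 genes CBX1, CBX3 and CBX5, whose chromodomains read methylated lysine 9 of histone H3, were called in 0 of 3 cases in each comparison by edgeR's quasi-likelihood test. At an unadjusted p under 0.05 there were 0 of 3 as well, and their log2 fold changes against WT cells ran from -0.04 to 0.06.

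Pairs of members varied together in either direction. Over the 12 samples the Pearson correlation of log2 CPM between pairs of the 9 genes ran from -0.73 for CBX6 with RNF2 to 0.58 for CBX7 with CBX8. These are descriptions over samples that share their lines. The transcript start windows of the members also differed. In the RefSeq windows on GRCh38.p14, from 250 bases before to 50 bases after a start, 7 of the 9 genes were matched, and CG dinucleotides, which read the same on both strands, were counted. CBX7 had 50 and CBX6 47, and 1.29% and 2.41% of all 35116 windows hold as many. RNF2 and RING1 had 41 each, BMI1 36 and 65 at 2 starts, PHC1 10 and 28 at 2 starts, and PCGF2 2, against a median of 14 over all windows. The PCGF2 window, chr17:38746579-38746878 on the minus strand, lies inside the annotated gene, whose upstream end is at 38749817. Its count therefore does not describe the upstream end of PCGF2. CBX2 and CBX8 were not in that table.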

How the data were processed

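RNA-Seq was measured in 12 samples, 3 replicates of each of 4 EZH2 lines, with groups and replicate numbers from the labels. Reads were trimmed with Trim Galore 0.6.5, aligned to GRCh38 with STAR 2.7.9a and quantified with Salmon 1.2.0, from the submitters' processing notes and the study's methods. The deposited table holds raw counts, 1 row for each gene symbol, and the step from Salmon estimates to whole counts and the filter behind the 14438 genes are not given in the sources used here. Transcript estimates share reads between paralogs and overlapping genes, which bears most on the low members.

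The fits used edgeR 4.0.16 (R 4.3.3) with TMM factors and the quasi-likelihood test, with 1 coefficient per line and Benjamini-Hochberg adjustment at 0.05. The study's methods use edgeR's exact test, which was an alternative. Genes at 0 in all replicates of a line (175) were left out, since such rows may be failed estimates, which leaves 14263. Log2 CPM used a prior count of 2 and ratios of counts a prior of 0.5. Intervals are 95%. Fits were also made with DESeq2 1.42.0, limma 3.58.1 (voom with quality weights), other scaling and filters, the compared groups alone, a replicate block, GC trends removed and each sample left out. Scripts were tested on simulated data.

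Symbols were matched to GENCODE v44 on GRCh38 for positions and lengths (13272 by name, 809 by an older symbol, 357 unmatched). All 9 members are named, with PHC2, PHC3, the HP1 genes, up to 3 called list genes per comparison and up to 3 genes most like a called member. The members and lists were chosen with earlier results of these data known.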

Additional observations from a re-analysis of the deposited data

Results flagged for a closer look

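The GOF mutants and LOF cells differed for 4 of the 42 genes of the wider PRC1 list, 3 higher and 1 lower. Among all genes 12.6% were called, 3.81% higher and 8.75% lower, so the list does not stand out. The test was of the difference itself, the mean of Y641F cells and A677G cells against LOF cells (edgeR quasi-likelihood test with Benjamini-Hochberg adjustment). It compares lines, and line and mutation cannot be told apart. PCGF5 differed by -0.31 on the log2 scale, PCGF3 by 0.13, ASXL2 by 0.15 and DCAF7 by 0.10. All 6 GOF samples lay beyond the 3 LOF samples for PCGF5, PCGF3 and DCAF7, and the samples overlapped for ASXL2. Of all genes, 13.9% did not overlap in this comparison. The 4 genes were picked by their calls in it, so this separation is no independent support. These calls depended on single samples to a different degree. Of 12 fits that left out 1 sample, PCGF5 was called in 12, PCGF3 in 11, ASXL2 in 8 and DCAF7 in 4. Of 10 alternative settings, PCGF5 and PCGF3 were called in 10, ASXL2 in 9 and DCAF7 in 7. ASXL2 was not called with limma voom (adjusted p = 0.0530). DCAF7 was not called with the replicate block (adjusted p = 0.0504), at least 10 counts in every sample (0.0506) or the compared groups alone (0.0616). Its adjusted p in the fit reported was 0.0471. None of the 9 members met this test, and 12.6% of all genes did.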

How the results depend on the processing

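Of the 45 log2 fold changes of the members, 470 of 486 values under the planned settings kept their direction and their side of the threshold, as did 506 of 540 values with 1 sample left out. CBX6 in Y641F cells was called in all 11 settings (-0.17 to -0.15, adjusted p 2.99e-06 to 0.0106), and PCGF5 in all 11 in Y641F cells (-0.42 to -0.38) and in A677G cells (-0.29 to -0.27). CBX6 in A677G cells, and so 1 member in place of 0, was called with DESeq2 (adjusted p = 0.0133), with library totals in place of TMM (0.0401), with at least 10 counts in every sample (0.0390), with the compared groups alone (0.0153) and with limma voom (0.00978). The other PRC1 genes called in A677G cells were 1 in the fit reported, 2 in the exact test of edgeR, 3 with the compared groups alone and 3 with voom. In Y641F cells they were 2 in the fit reported and 1 with the compared groups alone. Several log2 values near 0 changed sign and none of these was called. With library totals CBX2 was -0.0032 and BMI1 -0.00084 in LOF cells. With the GC trend removed CBX2 was 0.010 and RING1 0.0065 in Y641F cells, BMI1 was -0.0013 in LOF cells, and the RNF2 to RING1 ratio differed by -0.012 in LOF cells. With voom PCGF2 was 0.018 in Y641F cells and 0.031 in Y641F against A677G cells, and CBX2 was -0.0089 in LOF cells. The causes of these shifts were not tested. The exact test gives no value for the mean of the GOF mutants. Over all genes the calls in Y641F cells ran from 838 with the compared groups alone to 1302 in the exact test, against 1095, those in A677G cells from 1143 to 1805, against 1219, those in LOF cells from 31 to 169, against 43, those in Y641F against A677G cells from 9 to 178, against 12, and those of the GOF mutants against LOF cells from 1693 to 2096, against 1792.

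The replicate numbers did not pair the samples. Deviations from the group means correlated between -0.06 and 0.05 in the 18 pairs of samples with the same number and between -0.07 and 0.07 in the 36 pairs with different numbers. With the replicate block 1 member was called in Y641F cells (CBX6, -0.17, adjusted p = 0.00125) and 0 in the other 4 comparisons, and 2, 1, 0, 0 and 3 of the other PRC1 genes. With the block and the GC trend removed together, CBX2 was 0.011 and RING1 0.0049 in Y641F cells, and BMI1 was -0.00062 in LOF cells.

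With 1 sample left out, the calls over all genes ran from 703 (without WT replicate 2) to 1232 in Y641F cells, from 825 to 1457 in A677G cells, from 11 (without LOF replicate 1) to 65 in LOF cells, from 8 to 57 (without Y641F replicate 2) in Y641F against A677G cells, and from 1203 (without LOF replicate 1) to 2105 for the GOF mutants against LOF cells, so the shares of all genes set beside the members move with single samples too. In LOF cells they were also 12, 17 and 25 without WT replicate 1, 2 and 3, 19 without LOF replicate 2 and 65 without Y641F replicate 1, and in Y641F against A677G cells 8 without A677G replicate 2 and 21 without Y641F replicate 3. CBX6 in Y641F cells ran from -0.18 to -0.15 and was called in all 12 fits, and in A677G cells from -0.12 to -0.09, called in 3 of 12, so that 0 to 1 members were called there. The other PRC1 genes called ran from 1 to 4 in Y641F cells, with 4 without Y641F replicate 1 and 1 without WT replicate 2, WT replicate 3 or Y641F replicate 3. They ran from 1 to 2 in A677G cells, and from 2 to 6 for the GOF mutants against LOF cells, with 2 without LOF replicate 1 or replicate 2. In Y641F cells the log2 fold change ran from -0.052 to 0.028 for CBX2, -0.049 to 0.083 for CBX8, -0.30 to 0.025 for PCGF2 and -0.095 to 0.031 for RING1. In A677G cells it ran from -0.28 to 0.042 for PCGF2 and -0.078 to 0.084 for BMI1. In LOF cells it ran from -0.039 to 0.038 for CBX2, -0.12 to 0.21 for PCGF2, -0.095 to 0.091 for BMI1, -0.0042 to 0.041 for RING1, -0.092 to 0.022 for PHC1 and -0.047 to 0.0021 for PCGF5. In Y641F against A677G cells it ran from -0.099 to 0.094 for PCGF2, -0.030 to 0.12 for RING1 and -0.11 to 0.0040 for PHC1. For the GOF mutants against LOF cells it ran from -0.12 to 0.099 for CBX7 and -0.083 to 0.031 for PHC1. CBX7 ran from 0.18 to 0.45 in Y641F cells, 0.0072 to 0.24 in A677G cells and 0.13 to 0.35 in LOF cells, and its ratio to CBX6 differed by 0.33 to 0.61, 0.096 to 0.36 and 0.21 to 0.43. The ratio BMI1 to PCGF2 differed by -0.34 to 0.19 in Y641F cells, -0.15 to 0.37 in A677G cells and -0.34 to 0.18 in LOF cells, CBX8 to CBX2 by -0.056 to 0.14 in Y641F cells and -0.067 to 0.13 in A677G cells, and RNF2 to RING1 by -0.011 to 0.061 in LOF cells. Depth and spread limited CBX7 and PCGF2 most, where log2 changes in Y641F cells under 0.54 and 0.51 would not have been called.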
